A study of Homo sapiens with 3 samples.

Results

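The genes of the integrated stress and amino acid response were examined for occupancy by the PRCC-TFE3 fusion protein, a transcription factor that joins part of PRCC to TFE3 in renal cell carcinoma. The 6 genes *ATF4*, *DDIT3*, *TRIB3*, *ASNS*, *DDIT4* and *SESN2* were chosen by name, and their peaks were those that touched the gene or 10 kb on either side of it, in hg19 coordinates. These windows held 25 of the 70426 regions that both ChIP replicates of the series shared. HK-2 cells, an established line from human renal proximal tubule, carried HA-PRCC-TFE3 under doxycycline control. Every sample, input DNA included, came from such cells after 24 h in 0.2 microg/ml doxycycline. The data comprised 2 HA-PRCC-TFE3 ChIP libraries, precipitated through the HA tag and called replicates 1 and 2, and 1 input DNA library. Uninduced cells and a control precipitation were not analysed here, and the protein was an induced, tagged one, so the peaks describe its binding in this system and not that of endogenous TFE3. Each ChIP sample had a narrowPeak list and a second list in BED form, which also counts tags, the mapped reads in a peak. As estimated from the BED lists, the libraries comprised 12235754 tags in replicate 1, 7418533 in replicate 2 and about 21698071 in input DNA.

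In this response, kinases that sense unfolded protein, amino acid shortage and other stresses phosphorylate the translation factor eIF2, which lowers general protein synthesis and favors translation of the *ATF4* mRNA. ATF4 is a bZIP transcription factor that pairs with C/EBP proteins on composite elements and activates genes of amino acid supply, redox balance and cell death. TFE3 belongs to the MiT/TFE family, whose members bind E-box sequences such as CACGTG, move to the nucleus when amino acids are scarce, and are known for control of lysosomal genes.

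To show the sequence at the starts of these genes, RefSeq promoter sequences of GRCh38.p14 were searched. All 6 genes had an entry. The peak lists are in hg19, no coordinates were converted, and so a match below was not placed within a peak. The windows searched held 250 bases before and 50 after a RefSeq start. The E-box CACGTG was present in 1 of the 6 genes, *ATF4*, 82 to 77 bases before its first-listed start, and in 7.43% of the first-listed promoters of 27305 genes. The E-box CATGTG, read on both strands, was in none of the 6 windows and in 11.23% of all. The longer forms TCACGTGA and TCATGTGA, which contain these E-boxes, were also in none of the 6 and in 1.04% and 1.01% of all. TGATGNAA, the core of the element that ATF4 and C/EBP proteins bind, was searched on both strands. It was present in *ASNS*, 68 to 61 bases before its first-listed start, and in 3.67% of all first-listed promoters. The RefSeq starts were not compared with the hg19 starts used for the peaks. Distances of motifs and of summits therefore cannot be set side by side, and the windows searched may not match the promoters examined for peaks. A missing match says only that these letters are not in this short window.

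The 250 bases before the RefSeq start are shown for both genes with a match, with the match in capitals, and for *DDIT4* and *SESN2*, whose promoter peaks had the highest narrowPeak fold enrichments of the 6 genes. They are on GRCh38.p14, chr22:39520309-39520558 (plus strand) for *ATF4*, chr7:97872409-97872658 (minus strand) for *ASNS*, chr10:72273674-72273923 (plus strand) for *DDIT4* and chr1:28259268-28259517 (plus strand) for *SESN2*.
ATF4: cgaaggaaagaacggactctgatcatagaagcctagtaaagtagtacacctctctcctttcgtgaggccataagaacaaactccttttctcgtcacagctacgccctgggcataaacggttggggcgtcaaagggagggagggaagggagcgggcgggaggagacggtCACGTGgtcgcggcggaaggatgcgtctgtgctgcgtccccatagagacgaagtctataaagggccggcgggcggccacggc
ASNS: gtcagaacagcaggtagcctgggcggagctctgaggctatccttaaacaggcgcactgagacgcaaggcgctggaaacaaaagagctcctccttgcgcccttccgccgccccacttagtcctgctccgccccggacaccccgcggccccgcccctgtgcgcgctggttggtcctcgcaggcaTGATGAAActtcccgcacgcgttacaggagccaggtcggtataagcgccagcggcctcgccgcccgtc
DDIT4: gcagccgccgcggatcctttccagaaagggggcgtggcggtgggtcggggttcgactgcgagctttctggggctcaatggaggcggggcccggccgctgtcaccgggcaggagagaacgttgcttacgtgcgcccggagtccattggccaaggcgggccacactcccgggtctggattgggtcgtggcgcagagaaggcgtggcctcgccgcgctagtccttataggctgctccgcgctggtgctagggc
SESN2: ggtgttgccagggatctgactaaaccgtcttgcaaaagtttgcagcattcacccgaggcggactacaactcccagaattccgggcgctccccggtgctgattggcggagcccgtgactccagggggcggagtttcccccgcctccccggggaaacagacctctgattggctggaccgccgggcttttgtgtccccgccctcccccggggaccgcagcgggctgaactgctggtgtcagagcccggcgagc
The G and C content of this stretch was 58.4% in *ATF4* and 66.0%, 68.8% and 65.6% in *ASNS*, *DDIT4* and *SESN2*. It was 67.2% in *DDIT3* and 78.8% in *TRIB3*.

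First, the promoters were examined, taken as 1 kb on either side of the strand-wise start. All 6 genes had a region there that was present in both replicates. For comparison, 5.04% of the 1516790 windows of 2001 bp laid end to end over chromosomes 1 to 22 and X held such a region. Those windows include sequence that cannot be mapped and are mostly not promoters. An hg19 annotation of all genes was not used here. The share over all promoters, the other genes of the pathway and the exons and introns under each peak were therefore not analysed. No peak of the 286 in the input DNA list lay in any of the 6 windows. So short a list over about 3035 Mb would rarely reach windows of 188536 bp in all. Its absence there therefore says little about background at these genes. The summits of the strongest promoter regions, which are their points of highest signal, lay from 406 bp before the start to 83 bp after it.

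*SESN2*, which encodes a leucine sensor that restrains mTORC1, had a promoter region at chr1:28585625-28586178. Its fold enrichment over background, as the peak caller gave it for the narrowPeak lists, was 31.83 in replicate 1 and 31.6 in replicate 2, with summits 67 bp and 40 bp before the start. Only 0.37% of all shared regions were as strong or stronger by the lower value of both replicates. *DDIT4*, whose product REDD1 also inhibits mTORC1, had a region at chr10:74033262-74033794 with fold enrichments of 30.25 and 32.85. Its summits lay 202 bp and 153 bp before the start, and 0.53% of all shared regions were as strong or stronger. By this fold enrichment *SESN2* and *DDIT4* had the highest promoter values of the 6 genes in both replicates, and their order changed between the replicates.

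*DDIT4* was also the only one of the 6 genes with a second shared region at its promoter. That region, chr10:74032207-74033001, had fold enrichments of 15.57 and 16.05 and summits 945 bp and 986 bp before the start. It therefore lay near the edge of the promoter as defined here.

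Of the transcription factors, *DDIT3* encodes CHOP, a C/EBP family member that promotes cell death during lasting stress. Its promoter region, chr12:57914270-57914795, was enriched 21.997-fold in replicate 1 and 25.01-fold in replicate 2. The summits lay 100 bp and 83 bp before the start. *ATF4* itself had a promoter region at chr22:39915935-39916394, with fold enrichments of 14.84 and 19.85. Its summits, 342 bp and 406 bp before the start, were the farthest from a start among the strongest promoter regions of the 6 genes, and the region ended before the gene began.

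*ASNS*, which encodes asparagine synthetase, had its promoter region at chr7:97501671-97502077 with fold enrichments of 15.88 and 16.95. Its summits were the closest to a start, 7 bp after it in replicate 1 and 6 bp before it in replicate 2. *TRIB3* encodes a pseudokinase that binds ATF4 and AKT. Its promoter region, chr20:361145-361736, had the lowest values of the 6 genes, 11.26 and 10.12, and its summits lay 83 bp and 27 bp after the start. Even so, only 31.47% of all shared regions were as strong or stronger, compared with 13.42% for *ATF4*, 11.54% for *ASNS* and 3.57% for *DDIT3*.

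**Figure D1:**
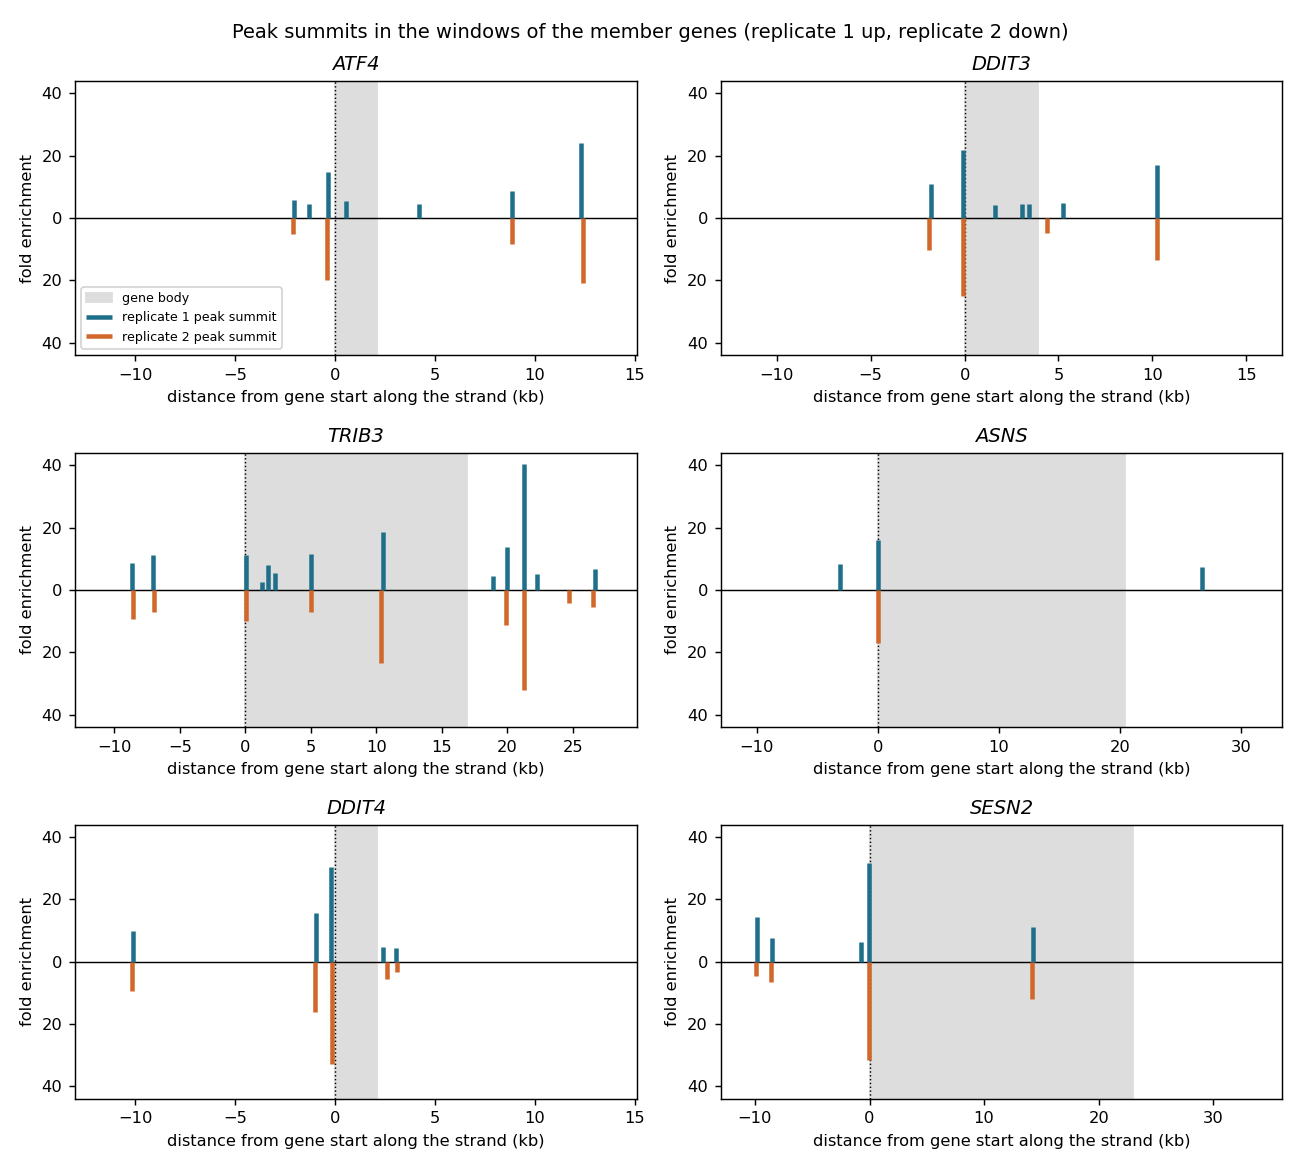
Peak summits in the windows of the 6 genes. The horizontal axis is the distance from the gene start along the strand in kb, the vertical axis is the fold enrichment given by the peak caller (replicate 1 upward, replicate 2 downward), and gray marks the gene body. A summit of each replicate stands within 406 bp of every start. The highest bar of replicate 1, 40.5, lies downstream of *TRIB3*, where replicate 2 had 32.3. The highest bar of replicate 2, 32.85, is at the *DDIT4* promoter.

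Next, ChIP tags were compared at the promoters, because the peaks of the BED lists had a fixed width of 208 bp in replicate 1 and 212 bp in replicate 2. *DDIT4* had 72 tags in replicate 1, or 58.8 per 10000000 tags of the library (95% exact Poisson interval, 46.0 to 74.1). In replicate 2 it had 59 tags, or 79.5 per 10000000 (60.5 to 102.6). *SESN2* had 65 and 49 tags, or 53.1 (41.0 to 67.7) and 66.1 (48.9 to 87.3) per 10000000. *DDIT3* had 49 and 41 tags, or 40.0 (29.6 to 52.9) and 55.3 (39.7 to 75.0) per 10000000.

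The remaining genes were lower. *ATF4* had 34 and 32 tags, or 27.8 (19.2 to 38.8) and 43.1 (29.5 to 60.9) per 10000000. *ASNS* had 31 and 29 tags, or 25.3 (17.2 to 36.0) and 39.1 (26.2 to 56.1) per 10000000. *TRIB3* had 30 and 18 tags, or 24.5 (16.5 to 35.0) and 24.3 (14.4 to 38.3) per 10000000. The order of the 6 genes was thus the same in both replicates. The intervals of all neighbors in this order overlapped, however. Overlap of intervals is not a test of a difference, and differences between genes were not tested. *DDIT4* and *SESN2* had intervals above that of *TRIB3* in both replicates, and the interval of *DDIT3* was above it in replicate 2 only. The intervals cover counting error only, and all 6 genes lay above the medians of the lists, 13.9 and 17.5 per 10000000.

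**Figure D2:**
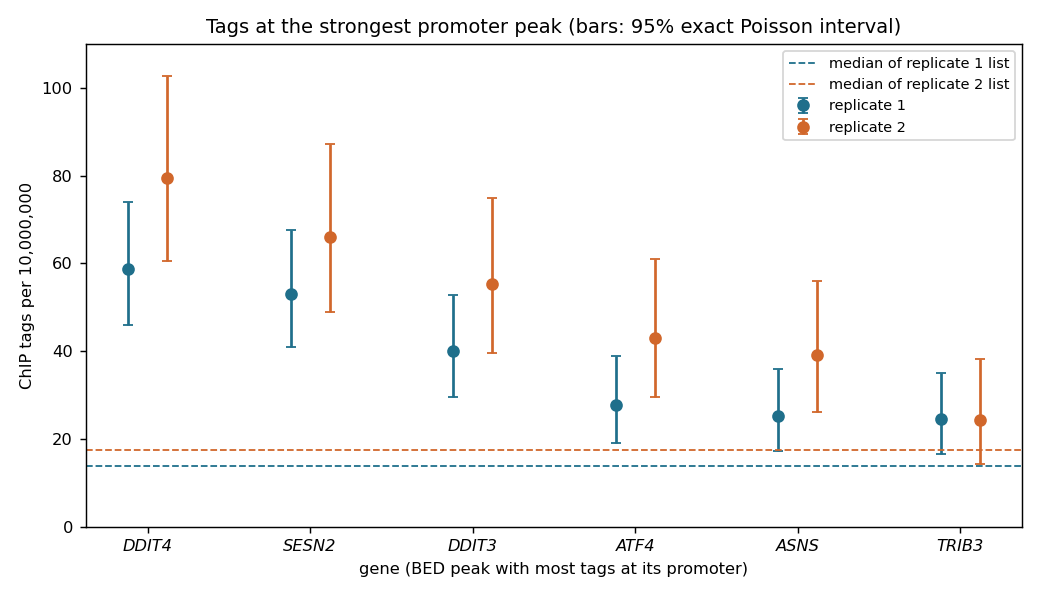
ChIP tags per 10000000 tags of the library (vertical axis) at the BED peak with the most tags at each promoter, by gene and replicate. Points are single libraries, bars are 95% exact Poisson intervals and dashed lines are the medians of the lists, 13.9 in replicate 1 and 17.5 in replicate 2; *TRIB3* is lowest in both replicates.

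Input DNA contributed few tags to these windows. The promoter peak had 0 and 1 input tags for *ATF4* (in the BED windows of replicates 1 and 2), 1 in both windows for *DDIT3*, *TRIB3* and *SESN2*, 0 in both for *ASNS*, and 1 and 2 for *DDIT4*. A count of 0 allows up to about 3 tags (1-sided 95% Poisson limit), so ratios over input rest on very few tags. The fold over input of the BED list was 127.68 in replicate 1 and 86.26 in replicate 2 for *DDIT4*, where the second window held 1 input tag more. By this ratio *TRIB3* was lowest as well, at 53.2 and 52.63. By the fold over the local background, *TRIB3* was again lowest, at 7.8 and 7.69, whereas *ASNS* came second at 26.06 and 35.23, after *SESN2* at 31.22 and 38.34. *DDIT4* was below *ATF4* here, at 12.65 and 13.9 against 12.91 and 18.47. The lowest place of *TRIB3* was therefore common to all of these measures, and the order of the others depended on the background used.

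To describe the windows beyond the promoters, all 25 shared regions were counted. *TRIB3* held 8, *DDIT4* 5, *ATF4* and *SESN2* 4 each, *DDIT3* 3 and *ASNS* 1. Of these, 7 touched a promoter, 3 lay in a gene body away from the promoter, 7 lay upstream and 8 downstream. Per 10 kb of window there were 1.33 shared regions, compared with 0.232 over chromosomes 1 to 22 and X. The density was 2.26 per 10 kb for *DDIT4* and 2.17 for *TRIB3*, and 0.261 and 0.366 on their chromosomes. At *ASNS* it was 0.25, close to the 0.233 of its chromosome. Windows around other genes were not compared.

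By the lower fold enrichment of both replicates, the strongest shared region of all 6 windows was not at a promoter. It lay downstream of *TRIB3*, at chr20:382029-383339, with summits 4402 bp and 4348 bp past the end of the gene. Its fold enrichment was 40.5 in replicate 1 and 32.3 in replicate 2, compared with 11.26 and 10.12 at the *TRIB3* promoter. Only 0.32% of all shared regions were as strong or stronger. The BED lists held 95 tags there in replicate 1 and 64 in replicate 2, with 0 input tags in either window. Of the BED peaks, 0.03% and 0.17% had as many tags or more. In replicate 2 alone, the *DDIT4* promoter had a higher fold enrichment, 32.85. Over the local background this *TRIB3* region had 14.91 and 14.27, below the promoters of *SESN2* (31.22 and 38.34) and *ASNS* (26.06 and 35.23).

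A neighboring region, chr20:380938-381661, had fold enrichments of 13.81 and 11.37. Within the *TRIB3* gene, the region chr20:370990-372066, whose summits lay 10517 bp and 10385 bp after the start, had fold enrichments of 18.59 and 23.34. Another in the gene, chr20:366193-366495, had 11.61 and 7.02. Upstream, the region chr20:352425-353428 had 8.50 and 9.46, and chr20:354102-354529 had 11.33 and 7.15. The last, chr20:387714-388564, had 6.83 and 5.40 and ran past the edge of the window, with its strongest summits inside. Thus 3 of the 8 *TRIB3* regions had higher values than its promoter in both replicates. In RefSeq no other gene lies within 10 kb of *TRIB3*, and the next protein-coding genes are *NRSN2* and *RBCK1*. Which gene lies closest to each of these regions, the strongest included, was not determined.

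The strongest region counted for *ATF4* was likewise downstream, at chr22:39928644-39929259, with fold enrichments of 24.1 and 20.9. It touched the edge of the window, but its summits, 10195 bp and 10315 bp past the end of the gene, lay outside it. When both summits had to lie inside, an alternative added after the data were seen, it was lost together with the upstream region of *DDIT4* at chr10:74023397-74023721 (9.88 and 9.47), and 23 shared regions remained. *ATF4* also had a downstream region at chr22:39925255-39925530 with 8.77 and 8.23 and an upstream one at chr22:39914379-39914696 with 5.71 and 5.06. The neighbors of *ATF4* within 10 kb in RefSeq are *MIEF1* and *RPS19BP1*, and which gene lies closest to each region was not determined.

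*DDIT3* had an upstream region at chr12:57915451-57916757, wider than 1 kb, with fold enrichments of 11.02 and 10.23 and summits 1784 bp and 1921 bp before the start. Downstream, the region chr12:57903801-57904323 had 16.96 and 13.34, with summits 6334 bp and 6322 bp past the end of the gene. Genes lie densely here, and RefSeq places 7 others within 10 kb, among them *MARS1*, *MBD6* and *DCTN2*. *SESN2* had 1 shared region inside the gene, chr1:28599822-28600328, with 11.01 and 12.06 and summits 14226 bp and 14212 bp after the start. Its upstream regions had lower values in replicate 2. The first, chr1:28575935-28576292, had 14.29 in replicate 1 and 4.73 in replicate 2, and the second, chr1:28577202-28577836, had 7.66 and 6.52. *DDIT4* had a weak pair just past its end, chr10:74035862-74036451 with 4.57 and 5.61 and chr10:74036522-74036888 with 4.30 and 3.29. The latter was the weakest shared region of the 6 windows. RefSeq places *DDIT4-AS1* within 10 kb of *DDIT4*. Which gene lies closest to each of the *DDIT3*, *SESN2* and *DDIT4* regions was not determined.

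Promoter and other regions were then set beside all shared regions. The lower fold enrichment of both replicates had a median of 15.88 over the 7 promoter regions (10.12 to 31.6), 8.36 over the other 18 (3.29 to 32.26) and 7.65 over all 70426. All 7 promoter regions and 10 of the other 18 were above that last value. Shared regions at the promoters of other genes were not singled out. Whether the promoter regions here are stronger than those of other genes was therefore not tested. Of the 25 regions, 6 were among the strongest 10% of all shared regions and 3 were among the strongest 1%, namely those at the promoters of *SESN2* and *DDIT4* and the one downstream of *TRIB3*.

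**Figure D3:**
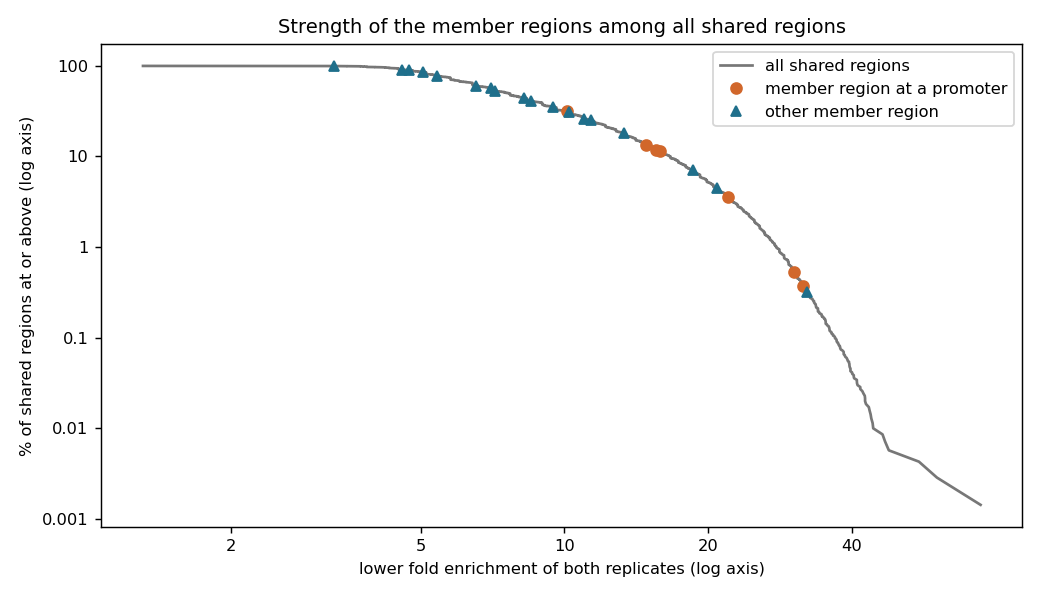
Strength of the 25 regions among all shared regions. The horizontal axis is the lower fold enrichment of both replicates and the vertical axis the percentage of all 70426 shared regions that were as strong or stronger, both on log axes; points lie on the gray curve by construction, and the 3 at the lower right are those near *SESN2*, *DDIT4* and *TRIB3*.

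Finally, the replicates were compared. The narrowPeak lists held 40 peaks in these windows in replicate 1 and 27 in replicate 2, of 109205 and 81300 in all. Merged, they gave 42 regions, of which 25 (59.5%) were shared, compared with 59.8% of all regions. Replicate 1 alone gave 15 and replicate 2, the shallower library, gave 2. These 17 regions had fold enrichments from 2.58 to 8.35, with a median of 4.73. They included 1 in the *ATF4* promoter window (5.46) and 1 in that of *SESN2* (6.36), both in replicate 1. The highest was upstream of *ASNS*, at chr7:97504837-97505093, with 8.35 in replicate 1. The BED lists held a peak there in both replicates, with 14 and 8 tags, so its absence from a narrowPeak list is not absence of tags. In shared regions the strongest summits of both replicates lay a median of 54 bp apart, and 21 of 25 pairs were within 100 bp.

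Whether single sites differed between the replicates was tested on BED peaks matched by mutual best overlap, with at least 20 tags in both libraries together. A two-sided exact binomial test compared the share of replicate 2 in the tags of a peak with 39.8%, its share over all matched peaks. Over the whole genome 0 of 53266 peaks (0%) passed an adjusted p of 0.05 (Benjamini-Hochberg), and 974 (1.83%) had an unadjusted p under 0.05. That share lies below the nominal 0.05, so the test was conservative at these peaks. The lack of passing peaks therefore does not show that the replicates agree. Among 18 peaks in the windows of the 6 genes none passed, and 1 had an unadjusted p under 0.05. That peak, inside *TRIB3*, had 48 tags in replicate 1 and 49 in replicate 2, a share of 50.5% (exact p = 0.0425, adjusted p = 1).

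At the strongest promoter peaks the share of replicate 2 was 48.5% for *ATF4*, 48.3% for *ASNS*, 45.6% for *DDIT3*, 45.0% for *DDIT4*, 43.0% for *SESN2* and 37.5% for *TRIB3*. None of these passed the test against 39.8% (exact p from 0.192 for *ATF4* to 0.862 for *TRIB3*, adjusted p = 1 for each). A peak had to be in both lists to be tested, so sites that 1 replicate lacked do not enter, and differences of this size were not detectable with 48 to 131 tags per peak.

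**Figure D4:**
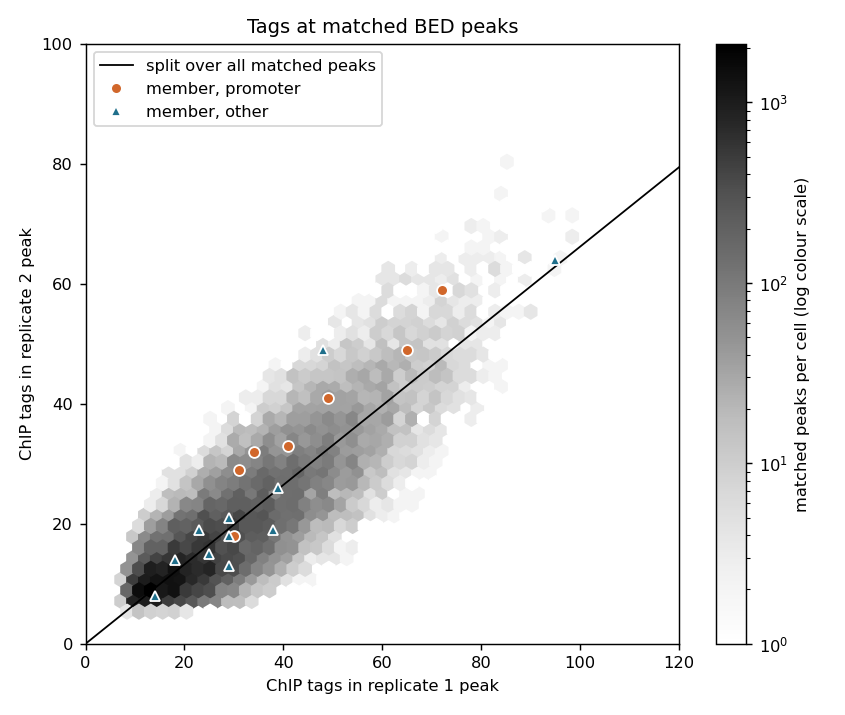
ChIP tags at matched BED peaks in replicate 1 (horizontal axis) and replicate 2 (vertical axis). Gray cells count all matched peaks on a log color scale, the line is the split over all of them, circles are peaks at the promoters and triangles other peaks of the 6 genes; 3 matched peaks lie outside the plotted range.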

How the data were processed

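ChIP-seq was available for 2 HA-PRCC-TFE3 ChIP replicates and 1 input DNA library from HK-2 cells, grouped by their labels. The authors deposited peaks called for each sample separately. According to the methods, MACS in Strand NGS was used with input DNA as the comparison and a stringent p-value threshold. The methods do not describe the narrowPeak and BED lists separately. The narrowPeak lists also hold weak peaks, such as 1 inside *TRIB3* in replicate 1 with a −log10 q of 1.4. The labels name hg19, and the aligner is not given in the sources used here. The deposited narrowPeak lists hold a fold enrichment ratio, −log10 p and q values, a score and a summit. The deposited BED lists have displaced header names and were read by position, after a check of the values, as a score, a signal in tags per 10000000, tag counts, scaled input signal, fold ratios over input and local background, p-values and a focus fraction, which was not used.

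Gene coordinates in hg19 were given with the choice of genes. The members, windows and tests were chosen with earlier results of these data known. Peaks of both replicates that overlapped by 1 bp or more were merged, and regions to which both replicates contributed were called shared. Values are given for every promoter peak and every shared region of the 6 genes. Library totals were the summed tags divided by the summed signal. Input tags were recovered from tags divided by fold over input, in units of 1 input tag. The smallest value, 0.5 tag at 46.1% and 46.9% of peaks in replicates 1 and 2, was read as 0 tags, and 100.0% of the other values were whole within 0.1. A fold over input at 0 input tags therefore rests on that assumed 0.5 tag. Windows of 2001 bp were laid over chromosomes 1 to 22 and X up to the last peak. Motifs were searched in RefSeq promoter sequences. The paper calls the libraries biological replicates, but the labels do not say whether they came from separate cultures, and the intervals and p-values model counting error only. The binomial test was tested on simulated data. Alternatives covered the peak list, threshold, overlap, windows and each replicate left out. Python 3.11.15, pandas 2.3.3 and scipy 1.17.1 were used.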

Additional observations from a re-analysis of the deposited data

How the results depend on the processing

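All 6 genes kept a shared region at the promoter with the BED lists, with q below 1e-05, with reciprocal overlap of 50%, with summits within 100 bp, with promoters of 500 bp on either side and with summits inside the promoter. Promoters of 2 kb on either side and peaks of either replicate alone also gave 6 genes, by construction. The number of shared regions in the windows was 25 and ranged from 18 with the BED lists to 22 under the other definitions of peaks and overlap. It was 23 with summits inside the window, an alternative chosen after seeing the data. It was 27 to 40 when either replicate was left out and all peaks of the other were counted. It was 16 with 5 kb on either side of the genes and 8 in the gene bodies alone, by construction, since these windows are smaller. Counts for single genes are small, and 17 of 54 alternative values moved by more than 1.5 times. Among them, *ATF4* had 2 shared regions with the BED lists in place of 4, and *ASNS* had 2 in place of 1. The share of windows with a shared region was 3.87% with the BED lists and 4.21% with q below 1e-05. No matched peak passed the test between replicates under any of its 4 alternatives. Promoter folds are on another scale in the BED lists. The mean over both replicates ranged from 7.74 to 34.78 over the local background. Over input it ranged from 52.92 to 129.28 among the 4 genes with input tags in both windows. For *ATF4* and *ASNS* that ratio rests on an assumed 0.5 input tag in 1 or both windows. No paired analysis was possible because only the ChIP samples have replicate numbers. With 7418533 tags in replicate 2, a peak that its list lacks cannot be taken as absent.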
